A study of Mus musculus with 4 samples.

Results

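The genes described here are those of transport between the endoplasmic reticulum (ER) and the Golgi apparatus, taken by gene symbol from the platform annotation. The symbols are those of the ER translocon and signal peptidase, the COPII and COPI coats, ARF GTPases and their GAPs, the TRAPP and COG tethers, golgins, p24 proteins and cargo receptors. The rule reads symbols and no measured value; the gene group itself was picked with earlier results of these data known. There were 72 such genes among 14884 named genes tested, and 3 of them (ARF3, SEC62 and TMED2) had 2 probe sets, of which the brighter one was used. They were measured in SW620 cells, an established line from a human colon carcinoma grown in RPMI medium with foetal bovine serum. The Ctrl group held 2 arrays of untreated cells. The F5446 group held 2 arrays of cells given 50 nM F5446 for 2 days, a small molecule that the labels call selective for the histone methyltransferase SUV39H1. The labels name no vehicle for the controls. The series calls the 2 arrays of a group biological replicates, and nothing in the labels ties them to separate cultures, so the tests weigh differences only against array-to-array spread, which may be technical. All results rest on 1 cell line. The records list the organism as mouse, but the line and the probe annotation are human.

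Proteins that will be secreted or sit in membranes enter the ER through the SEC61 channel and leave it in vesicles coated with COPII, which the GTPase SAR1 starts. They fuse with the ER-Golgi intermediate compartment and the cis-Golgi with the help of tethers such as TRAPP and long coiled-coil golgins. COPI vesicles, whose coat is recruited by ARF GTPases, carry escaped ER residents and Golgi enzymes backwards, guided by KDEL receptors, p24 proteins and the COG tether. A secretory epithelium such as the colon depends on this route for mucins, digestive enzymes and receptors, and the unfolded protein response can raise many of its genes.

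Several coat, golgin and tether genes carried more RNA signal in F5446-treated cells, while subunits within single tether complexes moved in opposite directions. Of the 72 genes, 29 rose, 14 fell and 29 did not pass (limma, Benjamini-Hochberg adjusted p under 0.05 over all genes). That is 59.7% of the members, beside 40.9% of all genes tested. Bright genes pass more often, and 69 of the 72 lay above 4.43, the median log2 signal of all probe sets. Among the 10241 genes above that limit 55.7% passed, so the share of trafficking genes that changed was close to that of other expressed genes. The split by direction was 40.3% higher and 19.4% lower for the members. For all genes it was 18.2% higher and 22.7% lower, and for the genes above the limit 25.2% and 30.6%. The members' median log2 fold change was 0.20, against -0.048 for all genes. The arrays' medians over named genes were 5.64 in both Ctrl arrays and 5.50 and 5.52 in the F5446 arrays. Centring each array on that median, which is meant where arrays are called centred, moved all genes up by 0.13 and gave medians of 0.32 for the members and 0.078 for all genes. With that scaling 38 members were higher and 13 lower, and the split over all genes turned from 2714 higher and 3372 lower to 3420 and 2735. Over all probe sets, named or not, the medians lay the other way, at 4.40 and 4.41 in Ctrl and 4.43 and 4.44 in F5446. Centring on those, a setting chosen after seeing the data, moved all genes by -0.030. It gave 28 members higher and 17 lower, and 2589 and 3582 of all genes. Quantile normalization gave 35 members higher and 14 lower, and 3109 and 2997 of all genes. The direction of the split over all genes therefore depends on the scaling. In bulk RNA, fewer cells with a transcript and less of it per cell cannot be told apart. Of the 43 members that passed, 22 changed less than 1.5-fold, beside 2159 of the 6086 genes that passed among all genes. Passing with a change of at least 2-fold were 7 of the 72 members, beside 1893 of the 14884 genes tested (12.7%). The arrays of the 2 groups did not overlap at 62 of the 72 genes (86.1%), beside 66.2% of all genes. That share was not computed for genes above the limit alone, so the part of signal level in this difference is not known.

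**Figure D1:**
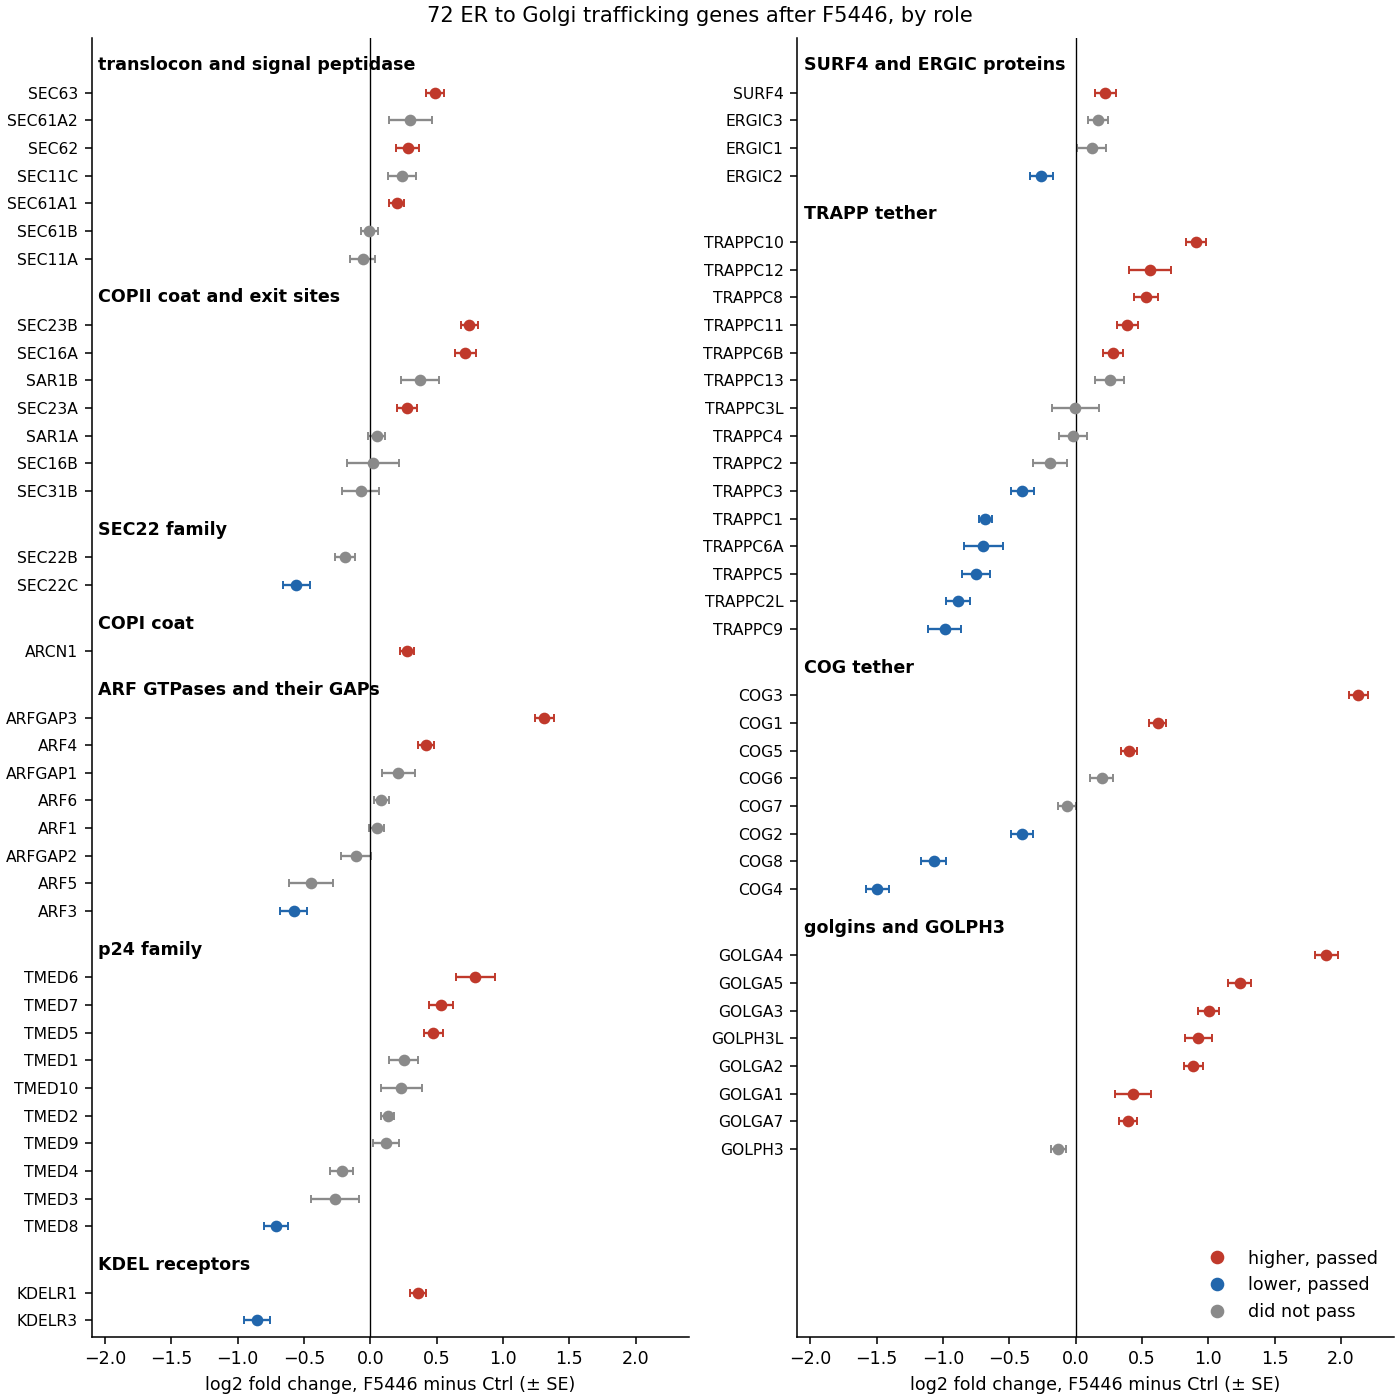
Log2 fold change (F5446 minus Ctrl, x axis) of each of the 72 genes, grouped by role, with bars of 1 SE from the limma fit (2 arrays a group); red and blue points passed the test and grey points did not. The golgins lie almost entirely to the right, and COG and TRAPP subunits spread on both sides, from -1.50 for COG4 to 2.13 for COG3.

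The arrays themselves were close within each group. Over the 72 genes the SD of the log2 difference between replicate arrays was 0.17 in the Ctrl group and 0.16 in the F5446 group, with a largest difference of 0.52 and 0.47. Colon epithelial markers were present: 8 of 10 measured lay above 4.43, and KRT20 and TSPAN8 did not. Of the 10, 6 fell (VIL1, KRT18, TSPAN8, EPCAM, CDX2 and KRT8) and 2 rose (CEACAM5 and KRT19). LYZ, 1 of 2 measured leukocyte markers (of 6 listed), fell from 6.77 and 6.66 to 4.84 and 5.01. LUM, 1 of 4 measured fibroblast and endothelial markers (of 8 listed), fell from 7.04 and 7.03 to 4.20 and 3.83, and the other markers of both lists lay below the limit. Those others, CD14, VWF, DCN and PECAM1, had log2 fold changes of 0.090, 0.42, 0.12 and 0.021 and did not pass. The log2 of the summed signal was 6.82 to 6.94 in Ctrl and 5.41 to 5.50 in F5446 for the leukocyte list. For the fibroblast and endothelial list it was 7.35 in both Ctrl arrays and 5.76 in both F5446 arrays. The colon epithelial sum also fell, from 13.04 in both Ctrl arrays to 12.23 and 12.25 in F5446. The part of all these markers in the results below was not tested.

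At the entrance to the pathway, 3 of 7 translocon and signal peptidase genes rose, each less than 1.5-fold, 0 fell and 4 did not pass, at a median log2 fold change of 0.24. The share that passed in either direction, 42.9%, lay beside 40.9% of all genes and 55.7% of genes above 4.43. All that passed were higher, beside 18.2% higher among all genes and 25.2% among genes above 4.43. Without Ctrl replicate 2 only 1 of the 7 rose, and without F5446 replicate 1 the median was 0.15. SEC63, a membrane partner of the channel that recruits the ER chaperone BiP, had log2 signals of 8.95 and 9.01 on the Ctrl arrays and 9.41 and 9.53 on the F5446 arrays (log2 fold change 0.49 ± 0.069, adjusted p = 0.000384). Both treated arrays lay above both controls, and the rise was 1.40-fold. SEC62, which works beside SEC63 in importing short proteins, went from 7.97 and 8.03 to 8.19 and 8.37 (log2 fold change 0.28 ± 0.087, adjusted p = 0.0296). Its dimmer probe set changed by -0.15, and with both averaged the call was lost (adjusted p = 0.733). SEC61A1, the pore-forming subunit, went from 10.69 and 10.62 to 10.90 and 10.81 (log2 fold change 0.20 ± 0.056, adjusted p = 0.0193). These latter 2 calls depend on single arrays. The SEC62 adjusted p was 0.141 without Ctrl replicate 1, 0.0767 without Ctrl replicate 2 and 0.235 without F5446 replicate 2. The SEC61A1 adjusted p was 0.123 without Ctrl replicate 2 and 0.173 without F5446 replicate 1. Over all settings it ran from 0.00365 to 0.733 for SEC62 and from 0.00131 to 0.194 for SEC61A1. SEC61A2, SEC61B and the signal peptidase subunits SEC11A and SEC11C had log2 fold changes of 0.30, -0.0083, -0.058 and 0.24 and did not pass.

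Among COPII genes SEC23B, SEC16A and SEC23A rose. That is 42.9% of those measured, beside 25.2% of genes above 4.43 and 18.2% of all genes. Of 7 measured members, 3 rose, 0 fell and 4 did not pass (median 0.28, and 0.14 without F5446 replicate 1). Without F5446 replicate 1, or either Ctrl array, 2 rose. The coat genes SEC13, SEC31A and those of the SEC24 family were not among the 7, so these shares cover only part of the coat. SEC23B, an inner coat subunit that stimulates GTP hydrolysis by SAR1, had signals of 9.58 and 9.51 in Ctrl and 10.24 and 10.33 in F5446 (log2 fold change 0.75 ± 0.062, adjusted p = 1.20e-05), a 1.68-fold rise. SEC16A, the large scaffold on which COPII assembles, rose 1.64-fold, from 7.83 and 7.91 to 8.63 and 8.55 (log2 fold change 0.72 ± 0.078, adjusted p = 7.05e-05). For both genes the groups were separated by far more than the distance between replicate arrays. SEC23A, the paralogue of SEC23B, rose less, from 7.94 and 7.94 to 8.20 and 8.23 (log2 fold change 0.28 ± 0.076, adjusted p = 0.0170). That call was lost when any 1 of the 4 arrays was left out, at adjusted p of 0.0614 and 0.0590 without Ctrl replicate 1 or 2 and 0.0854 and 0.112 without F5446 replicate 1 or 2, in a range of 0.00208 to 0.112. Neither SAR1 gene passed. SAR1A went from 9.24 and 9.27 to 9.32 and 9.28 (log2 fold change 0.047 ± 0.062, adjusted p = 0.629; 95% interval of the log2 fold change -0.095 to 0.19). SAR1B had the same value on both Ctrl arrays, 7.17, and 7.77 and 7.30 on the F5446 arrays (log2 fold change 0.37 ± 0.14, adjusted p = 0.0701); without F5446 replicate 2 its adjusted p was 0.0115, in a range of 0.0115 to 0.483. SEC16B, whose signal lay below 4.43 on every array, and the outer coat gene SEC31B had log2 fold changes of 0.019 and -0.074. Of the 2 measured genes of the SEC22 family, 1 fell. SEC22C fell 1.47-fold, from 7.09 and 7.01 to 6.47 and 6.52 (log2 fold change -0.56 ± 0.10, adjusted p = 0.00172). SEC22B, the SNARE of COPII and COPI vesicles, had -0.19 and did not pass; it has close pseudogene copies that could share its signal.

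The COPI coat was represented by 1 measured gene. ARCN1, its delta subunit, had 11.35 and 11.47 in Ctrl and 11.70 and 11.67 in F5446 (log2 fold change 0.28 ± 0.052, adjusted p = 0.00213), a 1.21-fold rise; without an intensity trend in the variance model the adjusted p was 0.0903, in a range of 0.000139 to 0.0903. Of the 8 ARF GTPases and ARF GAPs, 2 rose, 1 fell and 5 did not pass (median 0.066). That is 25% higher and 12.5% lower, beside 25.2% and 30.6% of genes above 4.43. The largest change was in ARFGAP3, a GAP that acts on ARF1 at COPI-coated membranes. Its signal went from 8.16 and 8.27 to 9.50 and 9.54 (log2 fold change 1.31 ± 0.071, adjusted p = 9.18e-07), a 2.48-fold rise in which both treated arrays lay more than a log2 unit above both controls. ARFGAP2, which shares that role, had signals of 7.81 and 7.54 and 7.64 and 7.49, which overlapped between the groups (log2 fold change -0.11 ± 0.11; 95% interval -0.36 to 0.14), and ARFGAP1 had 0.21. ARF4, a class II ARF of the early secretory pathway, rose from 10.39 and 10.51 to 10.83 and 10.90 (log2 fold change 0.42 ± 0.06, adjusted p = 0.000384). ARF3, a class I ARF at the trans-Golgi, fell from 9.25 and 9.04 to 8.45 and 8.68 (log2 fold change -0.58 ± 0.10, adjusted p = 0.00125), and its dimmer probe set changed in the same direction, by -0.85. ARF1 and ARF6 had 0.048 and 0.084 and passed only with arrays centred (adjusted p = 0.0291 in a range of 0.0291 to 0.998, and 0.0169 in a range of 0.0169 to 0.711). ARF5, the other class II ARF, had 7.95 and 8.46 in Ctrl and 7.60 and 7.92 in F5446 (log2 fold change -0.45 ± 0.17, adjusted p = 0.0613). Without Ctrl replicate 1, the lower of its control arrays, the log2 fold change was -0.70 (adjusted p = 0.0153), in a range of 0.00595 to 0.422.

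Receptors that sort cargo changed little, with the exception of a few p24 genes and the KDEL receptors. Of 10 genes with a TMED symbol, 3 rose, 1 fell and 6 did not pass (median 0.18, and 0.11 without Ctrl replicate 1). That is 30% higher and 10% lower, beside 25.2% and 30.6% of genes above 4.43. TMED6 went from 6.46 and 6.11 to 7.21 and 6.94 (log2 fold change 0.79 ± 0.15, adjusted p = 0.00197), a 1.73-fold rise. TMED7, which forms p24 complexes with TMED2 and TMED10, went from 7.60 and 7.76 to 8.19 and 8.23 (log2 fold change 0.53 ± 0.088, adjusted p = 0.000931). TMED5, another gamma-class p24 protein, went from 9.18 and 9.03 to 9.55 and 9.62 (log2 fold change 0.48 ± 0.073, adjusted p = 0.000592). All 3 that rose belong to the gamma class of the family. The other gamma members, TMED1 and the dim TMED3, had 0.25 and -0.27 and did not pass. TMED2 and TMED10, the only members of the beta and delta classes, had 0.13 and 0.23 and did not pass. The 2 probe sets of TMED2 differed in sign: the dimmer one changed by -0.20, and their average gave -0.035 (adjusted p = 0.807). The brighter one passed as higher with arrays centred (adjusted p = 0.00161) or quantile normalized (0.00527), and over all settings the adjusted p ran from 0.00161 to 0.807. Its direction therefore depends on the probe set. TMED4 and TMED9, of the alpha class, had -0.22 and 0.12 and did not pass (adjusted p = 0.0760 and 0.394). TMED4 passed as lower with a replicate block, with dim genes left out or with arrays centred on all probe sets, in a range of 0.0437 to 0.485. TMED8, which shares the GOLD domain of p24 proteins, fell from 7.98 and 7.86 to 7.26 and 7.16 (log2 fold change -0.71 ± 0.092, adjusted p = 0.000213).

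The 2 measured KDEL receptors, which return chaperones with a KDEL tail to the ER, moved apart. KDELR1 went from 10.21 and 10.33 to 10.59 and 10.66 (log2 fold change 0.36 ± 0.061, adjusted p = 0.00114), a 1.28-fold rise. KDELR3 went from 7.77 and 7.83 to 6.85 and 7.04 (log2 fold change -0.86 ± 0.099, adjusted p = 0.000103), a 1.81-fold fall. In each the treated arrays lay outside the range of the controls, on opposite sides. Among the other receptors, SURF4, which exports soluble cargo such as lipoproteins, went from 8.78 and 8.91 to 9.13 and 9.01 (log2 fold change 0.22 ± 0.077, adjusted p = 0.0461). ERGIC2, a cycling membrane protein of the intermediate compartment, went from 9.43 and 9.53 to 9.10 and 9.34 (log2 fold change -0.26 ± 0.087, adjusted p = 0.0401). Both calls lay near the threshold. The SURF4 adjusted p was 0.234 without Ctrl replicate 1, 0.295 and 0.0875 without F5446 replicate 1 or 2, 0.0721 after quantile normalization and 0.0764 with arrays centred on all probe sets, in a range of 0.00514 to 0.295. The ERGIC2 adjusted p was 0.0913 and 0.225 without Ctrl replicate 1 or 2, 0.311 without F5446 replicate 1 and 0.253 with arrays centred, in a range of 0.0149 to 0.311. ERGIC1 and ERGIC3 had 0.12 and 0.17 and did not pass.

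Subunits of the COG complex, an 8-protein tether for vesicles that recycle Golgi glycosyltransferases, moved strongly in both directions. Of the 8, 3 rose, 3 fell and 2 did not pass. That is 37.5% in each direction, beside 25.2% higher and 30.6% lower among genes above 4.43. The SD of the 8 COG log2 fold changes was 1.11, against 0.73 over all genes, dim ones included. The SD over genes above 4.43 alone was not computed. COG3 (probe set 16774551) had signals of 7.25 and 7.21 in Ctrl and 9.34 and 9.38 in F5446 (log2 fold change 2.13 ± 0.074, adjusted p = 8.03e-08), a 4.38-fold rise and the largest of the 72 genes. COG4 (probe set 16827805), which binds SNARE proteins and lies in the same lobe as COG3, had 9.49 and 9.38 and 8.04 and 7.85 (log2 fold change -1.50 ± 0.085, adjusted p = 1.26e-06), a 2.82-fold fall and the largest of the 72. COG8 (probe set 16827645), which with COG1 bridges the lobes, had 8.87 and 8.81 and 7.88 and 7.66 (log2 fold change -1.07 ± 0.092, adjusted p = 1.49e-05), a 2.10-fold fall. For these 3 genes the gap between the groups was several times the gap between replicate arrays. COG1 rose from 8.83 and 8.77 to 9.41 and 9.43 (log2 fold change 0.62 ± 0.065, adjusted p = 5.27e-05), so the bridging pair also moved apart. COG5 rose by 0.40, and COG2 fell by 0.40, on the log2 scale, while COG6 and COG7 had 0.19 and -0.066 and did not pass. COG6 passed with arrays centred (adjusted p = 0.0150) or quantile normalized (0.0303), in a range of 0.0150 to 0.367. Grouped by the lobes of the complex, lobe A (COG1 to COG4) held 2 that rose and 2 that fell, and lobe B (COG5 to COG8) held 1 of each. The calls for the 6 COG genes that passed were kept under all 12 other settings tried.

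The TRAPP complexes, which tether ER-derived vesicles and activate RAB1, moved in both directions. Of 15 genes, 5 rose, 6 fell and 4 did not pass; without F5446 replicate 1, or without F5446 replicate 2, 3 rose and 5 fell. The 9 genes of the core shared by all TRAPP complexes held 5 that fell and 1 that rose, with a median of -0.40. That is 55.6% lower and 11.1% higher for the core, and 40.0% and 33.3% for all 15 TRAPP genes. Among genes above 4.43 the shares were 30.6% and 25.2%. TRAPPC2L fell 1.85-fold, from 9.18 and 9.01 to 8.12 and 8.30 (log2 fold change -0.89 ± 0.091, adjusted p = 4.82e-05). TRAPPC5 fell 1.68-fold, from 7.94 and 7.69 to 7.10 and 7.03 (log2 fold change -0.75 ± 0.11, adjusted p = 0.000381). Both are small core subunits, and in both the treated arrays lay below the controls by more than the spread within a group. TRAPPC1, TRAPPC6A and TRAPPC3 fell by 0.68, 0.70 and 0.40 on the log2 scale. TRAPPC6B, the paralogue of TRAPPC6A, was the one core gene that rose (log2 fold change 0.28 ± 0.076, adjusted p = 0.0150). TRAPPC2, TRAPPC4 and the dim TRAPPC3L had -0.19, -0.018 and -0.0025 and did not pass; TRAPPC2 has a near-identical retrocopy that could share its signal.

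The 4 subunits found in the TRAPPIII complex, which also acts in autophagy, all had positive log2 fold changes, and 3 passed. That is 75% higher, beside 25.2% of genes above 4.43. TRAPPC12, TRAPPC8 and TRAPPC11 rose by 0.56, 0.53 and 0.39, and TRAPPC13 had 0.26. TRAPPC13 passed with arrays centred (adjusted p = 0.0176) or quantile normalized (0.0237), in a range of 0.0176 to 0.364. The 2 subunits of the TRAPPII complex moved apart. TRAPPC10 rose 1.88-fold, from 8.71 and 8.58 to 9.60 and 9.52 (log2 fold change 0.91 ± 0.073, adjusted p = 1.01e-05). TRAPPC9 fell 1.98-fold, from 6.98 and 6.83 to 6.02 and 5.82 (log2 fold change -0.99 ± 0.12, adjusted p = 0.000167). The division into core, TRAPPII and TRAPPIII genes was made after the values were seen and carries no test. Several TRAPP calls depended on 1 array. Without F5446 replicate 1 the adjusted p was 0.205 for TRAPPC12, 0.102 for TRAPPC6B and 0.0530 for TRAPPC6A. Without F5446 replicate 2 it was 0.0607 for TRAPPC11, 0.0549 for TRAPPC3 and 0.0900 for TRAPPC6B. TRAPPC12 also missed the threshold without Ctrl replicate 1 (0.165) and TRAPPC6B without Ctrl replicate 2 (0.0801). The ranges were 0.00610 to 0.205 for TRAPPC12, 0.00193 to 0.102 for TRAPPC6B, 0.00234 to 0.0530 for TRAPPC6A, 0.000467 to 0.0607 for TRAPPC11 and 0.00220 to 0.0549 for TRAPPC3. The core genes held 5 lower and 1 higher with arrays centred, and 4 lower and 0 higher without either F5446 array. Of the 4 TRAPPIII genes, all passed as higher with arrays centred or quantile normalized. With a replicate block, with no intensity trend, or without Ctrl replicate 1, F5446 replicate 1 or F5446 replicate 2, 2 of the 4 passed.

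**Figure D2:**
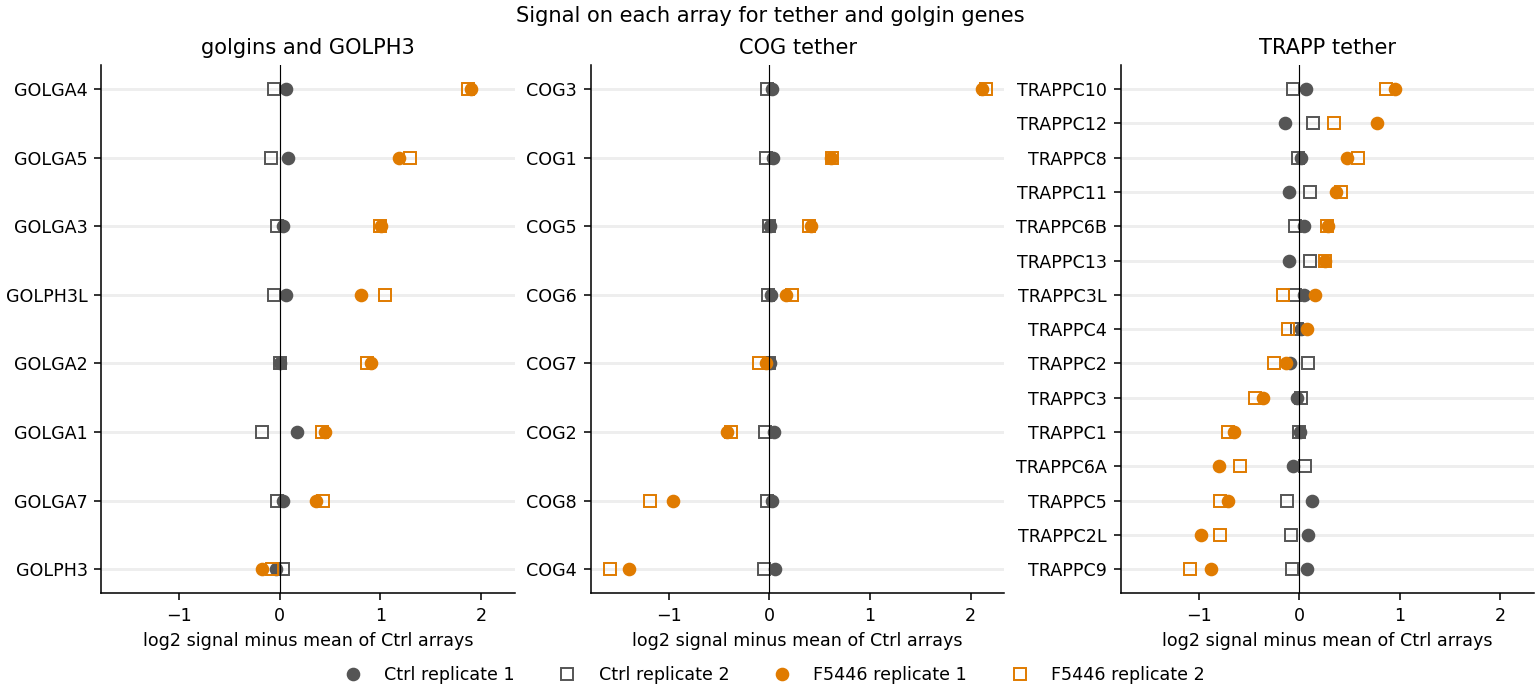
Log2 signal on each of the 4 arrays minus the mean of the 2 Ctrl arrays (x axis) for the golgin group, the COG genes and the TRAPP genes; grey marks are Ctrl and orange marks F5446, filled circles replicate 1 and open squares replicate 2. COG3 and COG4 lie farthest from 0 in opposite directions, and the orange marks of 7 of the 8 golgin-group genes lie to the right of both grey ones.

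The golgins, long coiled-coil proteins that catch vesicles at the Golgi surface, mostly rose. Of 8 measured genes named for golgins and GOLPH3 proteins, 7 rose and 0 fell, with a median log2 fold change of 0.91. That is 87.5% higher, beside 18.2% of all genes and 25.2% of genes above 4.43, where all 8 lay. GOLGA4 (probe set 16938935), a golgin of the trans-Golgi, went from 6.65 and 6.53 in Ctrl to 8.50 and 8.47 in F5446 (log2 fold change 1.89 ± 0.089, adjusted p = 3.94e-07), a 3.71-fold rise. GOLGA5 (probe set 16787623), a membrane-anchored golgin that captures vesicles within the stack, went from 8.003 and 7.84 to 9.10 and 9.21 (log2 fold change 1.24 ± 0.085, adjusted p = 3.67e-06), a 2.36-fold rise. GOLGA3 (probe set 16772733), a peripheral golgin that works with the dynein motor in placing the Golgi, went from 7.32 and 7.26 to 8.30 and 8.29 (log2 fold change 1.002 ± 0.082, adjusted p = 1.08e-05), a 2.00-fold rise. In these 3 genes both treated arrays lay far above both controls. GOLGA2, the cis-Golgi golgin that binds the tether protein encoded by USO1, rose 1.85-fold (log2 fold change 0.89 ± 0.074, adjusted p = 1.26e-05). GOLGA7, a partner of a palmitoyltransferase that is not itself a long coiled-coil golgin, rose 1.31-fold (log2 fold change 0.39 ± 0.066, adjusted p = 0.00105). GOLGA1, the other trans-Golgi golgin here, went from 6.54 and 6.19 to 6.82 and 6.78 (log2 fold change 0.43 ± 0.13, adjusted p = 0.0283). Its call was lost without Ctrl replicate 2 (adjusted p = 0.157) and without F5446 replicate 1 (0.173) or 2 (0.140), in a range of 0.00553 to 0.173.

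The lipid-binding Golgi proteins GOLPH3 and GOLPH3L differed from each other. GOLPH3L went from 7.64 and 7.52 to 8.39 and 8.62 (log2 fold change 0.92 ± 0.10, adjusted p = 6.39e-05), a 1.90-fold rise. GOLPH3, which keeps glycosyltransferases in the Golgi and is amplified in several cancers, had 10.44 and 10.51 and 10.29 and 10.39 (log2 fold change -0.13 ± 0.058, adjusted p = 0.112; 95% interval -0.26 to 0.0018). It passed as lower with arrays centred on all probe sets (adjusted p = 0.0458) and with a replicate block, in a range of 0.0458 to 0.969. Both treated arrays of GOLPH3L lay above its controls, and those of GOLPH3 lay below theirs by a margin smaller than the gap between its own replicate arrays.

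Several pairs of related genes moved apart. The difference between the paralogues' signals, taken within each array, is free of any constant shift of the whole array. It is not free of a scaling that depends on intensity, such as quantile normalization. KDELR3 minus KDELR1 was -2.44 and -2.50 in Ctrl and -3.74 and -3.62 in F5446, a shift of -1.21. ARFGAP3 minus ARFGAP2 was 0.35 and 0.73 in Ctrl and 1.86 and 2.05 in F5446, a shift of 1.42. GOLPH3L minus GOLPH3 was -2.80 and -2.99 in Ctrl and -1.91 and -1.77 in F5446, a shift of 1.05. The groups did not overlap for any of these 3 pairs. TRAPPC6B minus TRAPPC6A shifted by 0.98 and ARF5 minus ARF4 by -0.86. SEC23B minus SEC23A shifted by 0.47, with both genes higher. ARF1 and ARF6 differed by a shift of only 0.036, and SEC61A1 and SEC61A2 by 0.10, with overlapping arrays in both pairs. These shifts are descriptions: the exact permutation test with 2 arrays a group cannot give a p below 0.33.

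**Figure D3:**
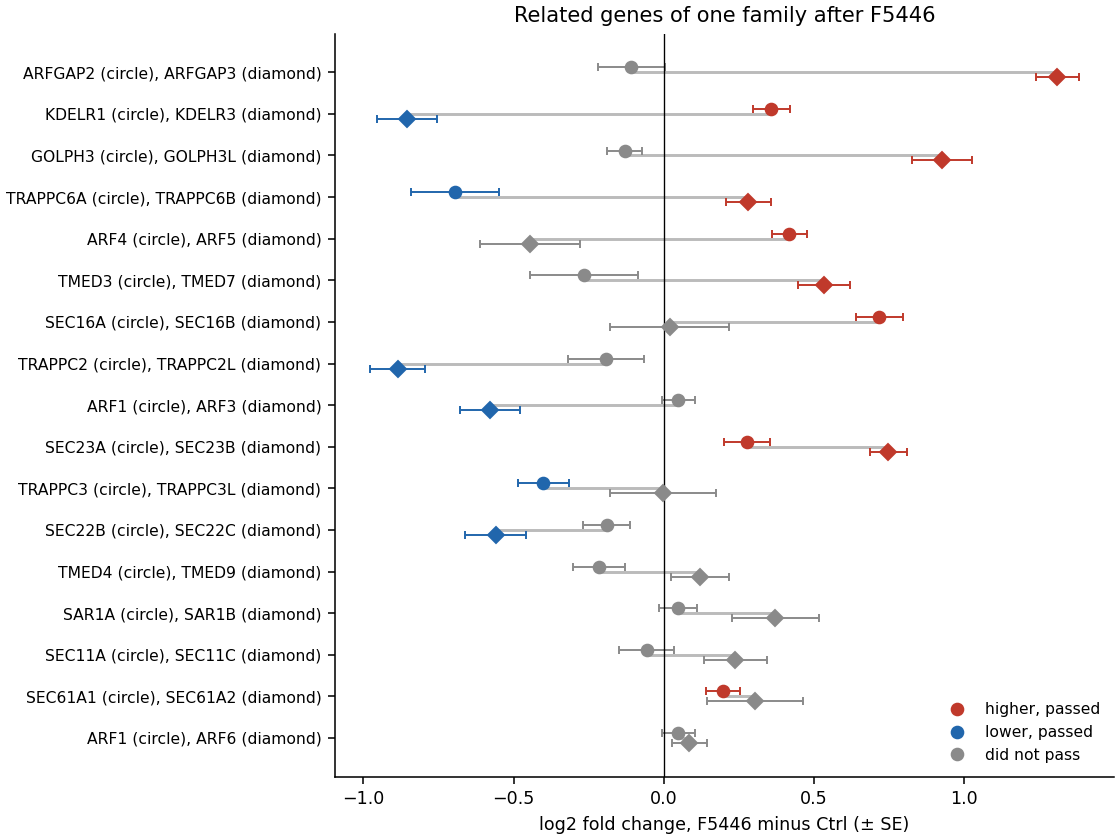
Log2 fold changes (F5446 minus Ctrl, x axis, bars of 1 SE, 2 arrays a group) of 17 pairs of related genes, ordered by the distance between the genes of a pair; circles are the first gene named and diamonds the second. The widest gaps are those of ARFGAP2 and ARFGAP3, KDELR1 and KDELR3, and GOLPH3 and GOLPH3L, with shifts of 1.42, -1.21 and 1.05.

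Other machinery of the early secretory pathway was read from 3 lists of genes outside the 72. The list of SNAREs, tethers and GTPase regulators held 66 genes, 46 of them measured. Of the 46, 27 rose, 12 fell and 7 did not pass (median 0.44). That is 58.7% higher and 26.1% lower, beside 18.2% and 22.7% of all genes and 25.2% and 30.6% of genes above the limit of 4.43, where 45 of the 46 lay. GOLGB1 (giantin, a COPI vesicle golgin) rose 2.50-fold, TRIP11 (a golgin of the cis-Golgi) 2.03-fold and the Golgi zinc finger protein gene ZFPL1 2.02-fold. GOLM1, a Golgi membrane protein, fell 2.26-fold, YIF1B 2.03-fold and NSF, the ATPase that takes SNARE complexes apart, 1.92-fold. PREB, the exchange factor that loads SAR1 with GTP, went from 9.42 and 9.36 to 8.65 and 8.52 (log2 fold change -0.80 ± 0.073, adjusted p = 2.11e-05; chosen after its value was seen), while the COPII genes SEC23B and SEC16A rose. GBF1, the exchange factor of ARF1 at the cis-Golgi, also chosen after its value was seen, had 9.41 and 9.27 and 9.87 and 9.79 (log2 fold change 0.49 ± 0.07, adjusted p = 0.000377). The list of ER targeting, signal peptidase and glycosylation machinery with ER chaperones held 40 genes, 24 of them measured. Of the 24, 11 rose, 9 fell and 4 did not pass (median 0.092), or 45.8% and 37.5%, with 23 of the 24 above the limit. HSPA5, the gene of BiP, was not among those measured. Of the measured chaperone genes, named after their values were seen, HYOU1 and CANX rose 1.21-fold and 1.13-fold and CALR fell 1.82-fold. OSTC rose 3.85-fold and TRAM1 1.78-fold, where OSTC encodes a part of oligosaccharyltransferase and TRAM1 a neighbour of the translocon. TUSC3, another part of that enzyme, went from 4.12 and 3.04 to 4.87 and 5.29 (adjusted p = 0.00440); both Ctrl arrays lay below 4.43, so no fold is given. RPN2 fell 1.92-fold and MAGT1 1.85-fold, both of oligosaccharyltransferase, and SRP9, of the signal recognition particle, 1.83-fold. Without F5446 replicate 1 the count that rose was 7, not 11.

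Sensors and transcription factors that act on secretory genes changed in both directions, more of them upward. Of 19 measured among 21 listed, 10 rose, 5 fell and 4 did not pass (median 0.33). That is 52.6% higher and 26.3% lower, with 18 of the 19 above the limit, beside the same shares of other genes. ERN1, the ER stress sensor that splices XBP1 mRNA, went from 5.62 and 5.42 to 8.41 and 8.43 (log2 fold change 2.90 ± 0.11, adjusted p = 1.06e-07). XBP1, the factor it activates, went from 8.17 and 8.02 to 9.75 and 9.73 (log2 fold change 1.65 ± 0.075, adjusted p = 3.44e-07); the array does not tell spliced from unspliced XBP1 mRNA. DDIT3 rose 7.52-fold, EIF2AK3 2.26-fold, ATF6 1.68-fold and ATF4 1.58-fold, all of the unfolded protein or integrated stress response. CREB3L2, a membrane-bound factor known to activate COPII genes in cartilage and also counted in the first of these lists, rose 1.97-fold. CREB3 rose 1.26-fold, TFE3, a factor of Golgi and lysosome stress, 1.68-fold, and INSIG2 1.68-fold. SREBF1, whose product travels to the Golgi in COPII vesicles to be cut, fell 2.38-fold. CREB3L4 fell 1.67-fold, SCAP, the escort of SREBP proteins, 1.37-fold, ATF6B 1.30-fold and INSIG1 1.23-fold. The count that fell was 3 without Ctrl replicate 1 and 3 without F5446 replicate 1.

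**Figure D4:**
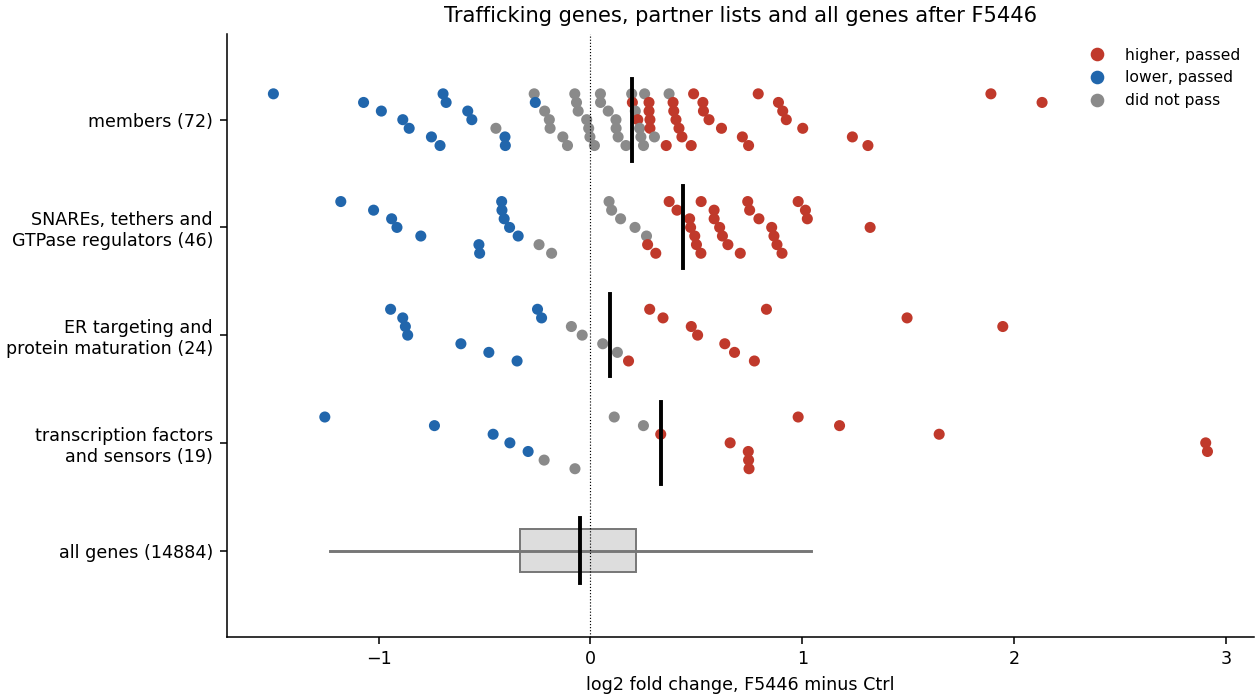
Log2 fold changes (F5446 minus Ctrl, x axis) of the 72 trafficking genes and of the 46, 24 and 19 genes of the partner lists, 1 point a gene with a black bar at the median; for all 14884 genes the box spans the quartiles and the line the 5th to 95th percentiles. The medians are 0.20, 0.44, 0.092 and 0.33, against -0.048 for all genes.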

How the data were processed

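Total RNA of 4 samples of SW620 cells (2 Ctrl, 2 F5446) was labelled with biotin as sense-strand cDNA and hybridised to 1-colour arrays, per the labels' protocols. The authors deposited 1 value per probe set and array, 53617 in all. The deposited values, from 0.71 to 13.8, were taken as log2 signal, since the table states no scale and a natural log of a scanner range would end lower. Partek is the program the submitters' processing notes name. How background and scaling were handled was not given in the sources used here; scaling between arrays would remove a difference in RNA per cell. The arrays' medians ran from 4.40 to 4.44. Precision is limited by the number of arrays. The platform annotation gives 1 symbol to 16098 probe sets and none to 37519. Per gene the probe set with the highest mean over the 4 arrays was used. limma 3.58.1 in R 4.3.3 (lmFit; eBayes, trend on intensity; treatment group alone in the design) was fitted to all 14884 genes. P-values are two-sided, adjusted by Benjamini-Hochberg over all genes, threshold 0.05; errors of fold changes are SEs, with 2 arrays a group. The fit was tested on simulated data.

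The members and lists were chosen with earlier results of these data known. Any member could be named. Array values were given for up to 4 members of largest change past the threshold in each role and for all that changed 2-fold. From partner lists the 3 largest rises and falls and every sensor or factor past the threshold were named, most of them by fold change alone. A few further members are given by array to show a pair. Alternatives were leaving out each array, a replicate block, centring, quantile normalization, leaving out dim genes, 2 other variance models, averaging probe sets and, added after seeing the data, centring on all probe sets. Promoter motifs and protein identities were planned but not analysed here.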

Additional observations from a re-analysis of the deposited data

How the results depend on the processing

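Under the 12 other settings none of the 43 members that passed changed sign. TMED2, which passed as higher with arrays centred, quantile normalized or with the replicate block, turned to -0.035 with probe sets averaged. Of the 43 calls, 31 were kept under all 12 and 12 missed the threshold in at least 1; of the 29 members that did not pass, 16 never did and 13 passed in at least 1. The count of higher members ran from 21 without an intensity trend to 38 with arrays centred, and that of lower members from 12 to 17, and both stayed within 1.5 times 29 and 14. Leaving out 1 array gave 23 to 25 higher and 12 to 14 lower. Left-out arrays gave 7 to 11 higher genes on the ER targeting list and 3 to 4 lower genes on the list of factors and sensors; all other list counts stayed within 1.5 times. The replicate numbers were not shown to pair the arrays: the deviations of same-numbered arrays correlated at 0.044 over genes, with 2 numbers. With the replicate number as a block, 28 members were higher and 17 lower; the 2 calls of SURF4 and TRAPPC12 were lost and 4 were gained (ARF5, GOLPH3, TMED2 and TMED4). The table gives no detection calls, so small changes of dim genes such as SEC16B, TMED3 and TRAPPC3L are not resolved.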
